A study of Mus musculus with 48 samples.

Results

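The RNA content of whole-cell lysates was compared between 2 experiments, numbered 3 and 4, that were run with the same 4 genotypes of mouse embryonic stem cells. These lysates are the input fractions of a series that asked which RNAs are recovered with Tnrc6a, a GW182 protein that links Argonaute proteins to the enzymes of RNA silencing. The 24 input libraries of the 48 libraries in the series were used, 12 from each experiment, and the 24 libraries of immunoprecipitated RNA were not used here. Members were all input columns of raw counts, with column numbers 1 to 3 taken as experiment 3 and 4 to 6 as experiment 4. The column names carry no experiment, so this assignment was inferred from the numbers.

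All cells derive from the 129S6/SvEvTac strain and carry a GFP reporter with binding sites for Trim71 (yGlob [GFP_5xT71BS]) and a stably transfected FLAG-Cas9::T2A::Blasticidin cassette, so these alleles are shared by every group. The 4 genotypes were untagged cells, HA-AVI-Tnrc6a cells with a tag on the endogenous gene, HA-AVI-Tnrc6a Ago2-/- cells and HA-AVI-Tnrc6a Upf1-/- cells, each with 3 libraries per experiment. Cells were grown on gelatin in medium with serum and LIF, the cytokine that sustains self-renewal, and 3 dishes per genotype were taken once confluent. The number of clones behind a genotype is not stated. Each experiment was run 1 time, so p-values measure the spread between dishes and not the spread between experiments.

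Embryonic stem cells in culture respond to their surroundings through a few well-known programs. When oxygen is short, prolyl hydroxylases stop marking HIF-1α for destruction, and the HIF complex binds a short DNA core and raises genes of glycolysis, mitophagy and pH control. Contact between cells and the stiffness of their support act on YAP and its partner TEAD, and FGF signalling through ERK raises transcription factors of the Etv family together with its own inhibitors. Heat and misfolded proteins release HSF1, which raises chaperone genes.

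Library totals were 15383953 to 19595405 counts in experiment 3 and 26458831 to 37179105 in experiment 4, so sequencing depth and experiment cannot be told apart by design. Ago2 stood at 105 ± 2.43 and 143 ± 6.07 CPM (SD, n = 3) in Ago2 knockout cells of experiments 3 and 4, against 228 ± 3.15 and 349 ± 13.2 CPM in HA-Tnrc6a cells. The libraries with the Upf1 knockout label held no less Upf1 mRNA, at 135 ± 1.72 and 155 ± 3.96 CPM against 85.7 ± 5.42 and 109 ± 1.80 CPM, and the Upf1 gene overlaps Cers1 and Gdf1. CPM here means counts brought to a common library size after scaling by TMM, a factor per library that aligns most genes. Of 8 stem cell markers, all 8 were tested, and their summed level was 7700 to 9010 CPM in experiment 3 and 6980 to 8070 CPM in experiment 4. Of 8 fibroblast markers that feeder cells would bring, 4 were not analysed here (Col3a1, Lum, Dcn and Postn), Col1a2 stood at 0 to 0.780 CPM, and the summed level was 37.5 to 56.5 CPM in experiment 3 and 30.2 to 64.2 CPM in experiment 4. Library 3 of HA-Tnrc6a and library 1 of untagged cells, both of experiment 3, stood apart from their replicates. Their chi-square per degree of freedom against the other 2 libraries was 27.0 to 32.0 and 8.83 to 9.98, where the remaining pair of each group gave 2.59 and 1.93.

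The experiments differed in most of the transcriptome. Of 19853 genes tested with edgeR's quasi-likelihood test on the average of the 4 genotypes, 13957 (70.3%) had a Benjamini-Hochberg adjusted p under 0.05, with 6922 (34.9%) higher and 7035 (35.4%) lower in experiment 4. Most of these differences were small. At 2-fold or more, 1297 genes (6.53%) were called, of which 462 (2.33%) were higher and 835 (4.21%) were lower. Without the pair of libraries that stood apart, 13743 genes were called, and with every library thinned to the lowest total 13158. Within single genotypes, 9714 genes (48.9%) were called in untagged cells, 9338 (47%) in HA-Tnrc6a cells, 9671 (48.7%) in Ago2 knockout cells and 9795 (49.3%) with the Upf1 knockout label.

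A smaller set of genes was called in every genotype with the same sign. It held 5047 genes (25.4%), of which 2658 (13.4%) were higher and 2389 (12%) lower in experiment 4. For 1980 genes (9.97%), the 12 libraries of one experiment did not overlap with the 12 of the other, with 1129 (5.69%) above and 851 (4.29%) below. The 4 genotype contrasts share no library, and Pearson's r between any pair of them over the 19853 genes was 0.666 to 0.708, across genes, which are not independent replicates. In the plot of principal components, the first component took 32.4% of the variance and separated the experiments without overlap.

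**Figure D1:**
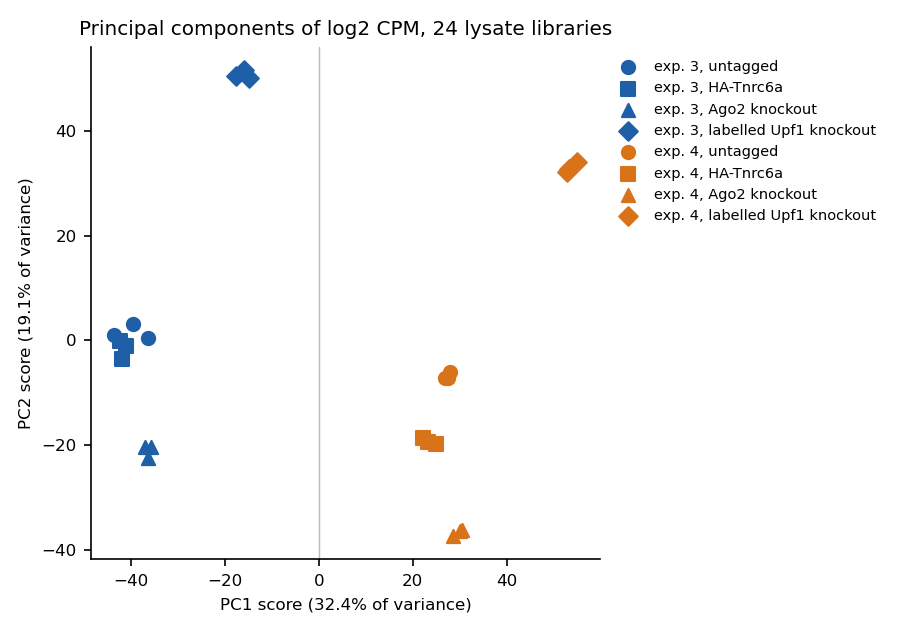
Scores of the 24 lysate libraries on the first and second principal components of log2 CPM (arbitrary units), with the experiment as color and the genotype as marker shape. On the first component, the libraries of experiment 3 lie between -43.6 and -14.8 and those of experiment 4 between 22.1 and 55.0.

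Genes of the hypoxia response were mostly lower in experiment 4. Of 27 members tested, 21 were lower in experiment 4, 3 were higher and 3 did not pass the test. In every genotype 17 were lower, beside 12% of all genes tested. The median log2 fold change of the list was -0.85, beside -0.0045 for all genes tested. At 2-fold or more, 12 of the 27 members were lower and 0 higher, beside 4.21% and 2.33% of all genes tested. For 15 of the 27 the libraries of the experiments did not overlap, beside 9.97% of all genes, and the 21 lower members stand beside 35.4%. Here and below, fewer cells of a kind and less RNA per cell cannot be told apart in a lysate.

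Bnip3, a mitochondrial receptor for mitophagy, fell most (ENSMUSG00000078566, GRCm38 chr7:138890836-138909506). Its level was 177 to 265 CPM with a median of 218 in experiment 3 and 9.44 to 60.8 CPM with a median of 28.2 in experiment 4. Every library of experiment 4 was below every library of experiment 3. The log2 fold change was -3.08 ± 0.043 (SE), an 8.45-fold lower level, with an edgeR adjusted p of 5.98e-26. In experiment 3 the group means lay close together, from 184 ± 6.24 to 246 ± 19.3 CPM (SD, n = 3). In experiment 4 they spread from 9.66 ± 0.289 CPM in cells labelled Upf1 knockout through 25.5 ± 0.242 in Ago2 knockout and 32.6 ± 1.96 in HA-Tnrc6a cells to 50.5 ± 9.07 in untagged cells, and no neighbours in that order overlapped.

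Ndrg1, a stress-responsive gene raised by HIF, stood at 27.8 to 58.8 CPM (median 41.3) in experiment 3 and at 9.15 to 21.6 CPM (median 12.3) in experiment 4, a log2 fold change of -1.67 ± 0.050 (edgeR adjusted p = 5.01e-27). Ankrd37, an ankyrin-repeat gene, stood at 9.87 to 18.6 CPM (median 13.6) and 2.46 to 6.03 CPM (median 4.56), a log2 fold change of -1.62 ± 0.073 (edgeR adjusted p = 1.31e-24), and it overlaps Ufsp2. Egln3 encodes one of the prolyl hydroxylases that mark HIF-1α. It stood at 53.3 to 70.7 CPM (median 61.9) in experiment 3 and at 15.3 to 44.4 CPM (median 20.0) in experiment 4, a log2 fold change of -1.42 ± 0.039 (edgeR adjusted p = 9.29e-30). None of these 3 genes overlapped between the experiments. Egln3 fell least in untagged cells, by 0.52 on the log2 scale, and by 1.51, 1.93 and 1.74 in HA-Tnrc6a, Ago2 knockout and labelled Upf1 knockout cells.

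Not every member followed. The 3 that rose were Hk2 (log2 fold change 0.35), Pfkfb4 (0.34) and Ak4 (0.15), and the 3 that did not pass were Slc2a3 (0.02), Pdk1 (0.02) and Gbe1 (0.09), all named after their values were seen. Hk2 encodes a hexokinase, Slc2a3 a glucose transporter and Pdk1 a kinase that restrains pyruvate dehydrogenase. Vegfa, the angiogenic factor, and Slc2a1, the main glucose transporter, were also named after their values were seen, and they fell by 0.32 and 0.28 on the log2 scale.

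**Figure D2:**
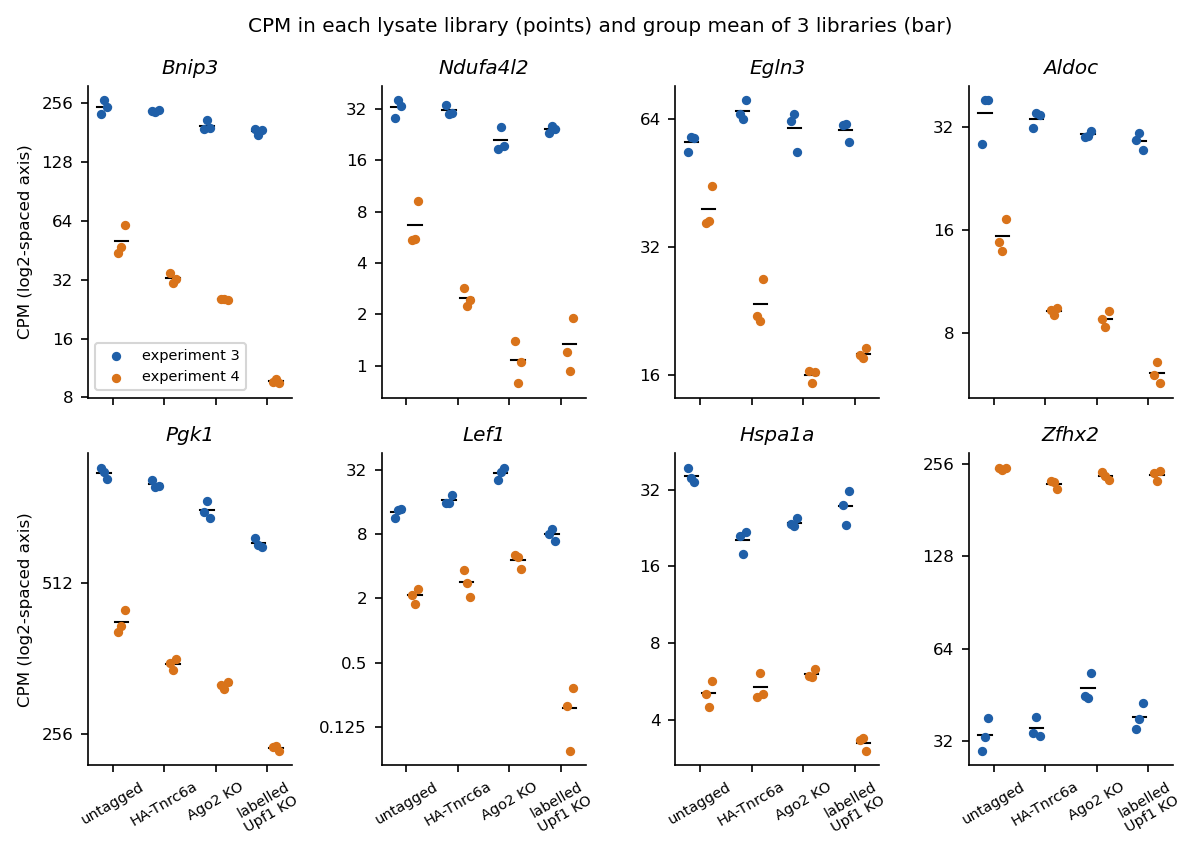
CPM on a log2-spaced axis in each of the 24 lysate libraries (points) for 8 genes, by genotype, with bars at the mean of 3 libraries. Bnip3, Ndufa4l2, Egln3, Aldoc, Pgk1, Lef1 and Hspa1a are lower in every library of experiment 4 than in every library of experiment 3, and Zfhx2 is higher.

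The HIF complex is known to bind the core ACGTG or GCGTG. RefSeq promoter windows of GRCm38.p6, from 250 bases before to 50 bases after the start of a gene, were searched for both cores on both strands, so CACGT and CACGC also count and matches may overlap. A core was present in 43.8% of all 32851 windows and in 65% of the 12371 tested genes that had a window. Of the hypoxia members that fell, 18 of the 19 with a window held a core, and of the remaining members 4 of the 5 with a window did. The 17 glycolytic enzymes described below all had a window. A core was held by 11 of the 14 that fell and by 3 of the 3 others. Windows of 3 of the 4 members described above are shown with that of Hk2, a member that rose, with the cores in capitals; Ndrg1 had no entry.
Bnip3, chr7:138909457-138909756, minus strand: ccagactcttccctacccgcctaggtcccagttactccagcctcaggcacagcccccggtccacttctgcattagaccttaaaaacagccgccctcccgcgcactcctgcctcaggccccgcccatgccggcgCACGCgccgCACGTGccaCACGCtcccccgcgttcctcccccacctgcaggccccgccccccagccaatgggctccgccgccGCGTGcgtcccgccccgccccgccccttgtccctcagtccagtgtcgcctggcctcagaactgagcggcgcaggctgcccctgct
Ankrd37, chr8:45999801-46000100, minus strand: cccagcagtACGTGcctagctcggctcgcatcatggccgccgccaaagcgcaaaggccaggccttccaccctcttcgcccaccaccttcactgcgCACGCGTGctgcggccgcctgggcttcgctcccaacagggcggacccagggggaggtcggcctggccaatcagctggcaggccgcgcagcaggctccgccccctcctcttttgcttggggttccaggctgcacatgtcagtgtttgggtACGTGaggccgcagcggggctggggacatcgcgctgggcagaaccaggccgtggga
Egln3, chr12:54203825-54204124, minus strand: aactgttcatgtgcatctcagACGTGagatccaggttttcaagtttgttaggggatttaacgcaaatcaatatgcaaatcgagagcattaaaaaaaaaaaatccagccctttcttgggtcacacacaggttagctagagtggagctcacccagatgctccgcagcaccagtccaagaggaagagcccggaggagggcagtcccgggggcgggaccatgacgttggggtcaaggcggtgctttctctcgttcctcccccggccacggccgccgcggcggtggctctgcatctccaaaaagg
Hk2, chr6:82774405-82774704, minus strand: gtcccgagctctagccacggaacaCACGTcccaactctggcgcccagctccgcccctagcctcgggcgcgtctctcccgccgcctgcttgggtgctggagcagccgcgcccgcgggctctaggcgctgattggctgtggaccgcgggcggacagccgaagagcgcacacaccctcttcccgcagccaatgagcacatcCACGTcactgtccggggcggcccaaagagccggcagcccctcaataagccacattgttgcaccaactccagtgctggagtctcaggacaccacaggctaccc
The 4 windows held 5, 4, 1 and 2 matches in that order. A match describes letters in the window and shows no binding.

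Glycolysis genes were mostly lower. Of 17 enzymes tested, 14 were lower, 13 of them in every genotype, and 3 were higher, with a median log2 fold change of -0.66. Over all genes tested, 12% were lower in every genotype and 34.9% were higher in the average. The 3 that rose were Hk1 (0.16), Hk2 (0.35) and Pfkm (0.33), named after their values were seen, which encode hexokinases and a phosphofructokinase. For 11 of the 17 the experiments did not overlap, beside 9.97% of all genes, and 35.4% of all genes were lower. This list shares Pgk1, Ldha and Hk2 with the hypoxia list.

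Aldoc, an aldolase, stood at 27.4 to 38.2 CPM (median 30.9) in experiment 3 and 5.70 to 17.2 CPM (median 9.15) in experiment 4, a log2 fold change of -1.78 ± 0.047 (edgeR adjusted p = 1.93e-34). Tpi1, triosephosphate isomerase, stood at 600 to 811 CPM (median 697) and 244 to 346 CPM (median 279), a log2 fold change of -1.29 ± 0.023 (edgeR adjusted p = 2.79e-41). Pgk1, phosphoglycerate kinase, stood at 603 to 869 CPM (median 770.2) and 238 to 454 CPM (median 335), a log2 fold change of -1.17 ± 0.020 (edgeR adjusted p = 1.09e-41). None of the 3 overlapped between the experiments. Ldha, which turns pyruvate into lactate, is among the most abundant of these RNAs. It stood at 1502 to 2284 CPM (median 2022) in experiment 3 and at 694 to 1139 CPM (median 1005) in experiment 4, without overlap, a log2 fold change of -1.01 ± 0.020 (edgeR adjusted p = 3.62e-39). Glycolytic genes have processed pseudogenes, so reads may be split between copies in a way that is not stated.

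Further genes with large falls act in respiration, the cell cycle and growth control. Ndufa4l2, a mitochondrial protein that lowers respiration in hypoxia, had the largest fall of the genes chosen by size. That choice was limited to genes with an edgeR adjusted p under 0.05 and the same sign in 4 genotypes. It also asked for an average log2 CPM of at least 3 and no Gm or Rik name. Ndufa4l2 went from 18.6 to 36.0 CPM (median 26.9) to 0.790 to 9.23 CPM (median 2.07). Its log2 fold change was -3.57 ± 0.0999 (edgeR adjusted p = 9.72e-20), without overlap, and it overlaps Shmt2. Ccng2, a cyclin G gene that slows the cycle, went from 32.1 to 51.0 CPM (median 43.2) to 7.98 to 17.6 CPM (median 10.2), a log2 fold change of -1.92 ± 0.046 (edgeR adjusted p = 5.23e-35). Ddit4, an inhibitor of mTORC1 placed here with the amino acid response, fell by 1.14 ± 0.047 on the log2 scale (edgeR adjusted p = 5.25e-19), and its libraries overlapped.

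Heat shock genes were mostly lower. Of 16 tested, 12 were lower, 3 higher and 1 did not pass, with a median log2 fold change of -0.31, and 10 were lower in every genotype. The shares over all genes tested were 35.4% lower, 34.9% higher and 12% lower in every genotype. Only the inducible Hsp70 genes reached 2-fold. Hspa1a stood at 17.9 to 39.1 CPM (median 24.1) in experiment 3 and 3.02 to 6.33 CPM (median 5.06) in experiment 4, a log2 fold change of -2.46 ± 0.055 (edgeR adjusted p = 2.19e-37). Hspa1b stood at 22.6 to 48.5 CPM (median 32.3) and 4.88 to 10.0 CPM (median 7.84), a log2 fold change of -2.14 ± 0.053 (edgeR adjusted p = 1.67e-35). The experiments did not overlap for either gene. The cochaperone Dnajb1 fell by 0.64 ± 0.025 and the Hsp110 family gene Hspa4l by 0.96 ± 0.055 on the log2 scale, while Hspd1, the mitochondrial Hsp60, did not pass (0.01).

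Hspa1a and Hspa1b are near-identical copies, so the split of reads between them is uncertain. Their promoter windows differed at 4 of 300 bases (98.7% identical), and each held 1 heat shock element searched as GAANNTTC or TTCNNGAA, palindromes that read alike on both strands. That element was present in 15.1% of all windows and in 14% of tested genes with a window. Of the heat shock members that fell, 7 of 10 with a window held it, and of the others 2 of 3. Both windows are shown to make the likeness of the copies visible, with the element in capitals.
Hspa1a, chr17:34972107-34972406, minus strand: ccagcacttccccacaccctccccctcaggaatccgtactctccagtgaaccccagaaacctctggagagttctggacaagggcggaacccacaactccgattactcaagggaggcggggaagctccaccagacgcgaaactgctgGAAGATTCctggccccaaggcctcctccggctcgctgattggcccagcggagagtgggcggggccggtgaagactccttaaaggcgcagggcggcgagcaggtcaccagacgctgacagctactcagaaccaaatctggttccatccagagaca
Hspa1b, chr17:34959189-34959488, minus strand: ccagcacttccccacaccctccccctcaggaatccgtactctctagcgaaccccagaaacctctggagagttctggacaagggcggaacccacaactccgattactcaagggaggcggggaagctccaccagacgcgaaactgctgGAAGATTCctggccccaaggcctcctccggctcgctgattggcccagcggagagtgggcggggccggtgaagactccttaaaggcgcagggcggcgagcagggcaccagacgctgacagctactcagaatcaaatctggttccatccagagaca

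Ribosomal protein genes and most replication-dependent histone genes, which have short transcripts, were lower too. All 76 ribosomal protein genes tested were lower in experiment 4, 69 of them in every genotype, beside 35.4% and 12% of all genes. The median log2 fold change of the list was -0.37. Their falls were small, and 0 of 76 reached 2-fold. Rpl36a had the largest, from 393 to 680 CPM (median 536) to 268 to 376 CPM (median 354), a log2 fold change of -0.62 ± 0.029 (edgeR adjusted p = 3.03e-18). These genes took 6.87% to 9.73% of the counts of a library (median 8.24%) in experiment 3 and 5.75% to 6.86% (median 6.50%) in experiment 4. The mean difference was -1.70 percentage points (exact two-sided permutation within genotypes, adjusted p = 1.667e-05 over 4 classes, raw p = 1.25e-05, the smallest that 160000 labelings can give). Ribosomal protein genes have many processed pseudogenes, and reads that both share are uncertain.

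Replication-dependent histone genes, which encode the histones made in S phase and end in a stem-loop in place of a poly(A) tail, had a median log2 fold change of -0.83. Of 56 tested, 52 were lower, 1 higher and 3 did not pass, beside 35.4% of all genes lower and 34.9% higher. At 2-fold or more, 16 were lower, beside 4.21% of all genes. Levels were low, and 7 were lower in every genotype, beside 12% of all genes. Their share of counts went from a mean of 0.00975% to 0.00611% (exact permutation, adjusted p = 1.667e-05). H2bc21 stood at 1.93 to 5.38 CPM (median 4.13) in experiment 3 and 1.04 to 1.93 CPM (median 1.61) in experiment 4, a log2 fold change of -1.32 ± 0.109 (edgeR adjusted p = 3.41e-15). H2ac8 fell by 0.78 ± 0.11 on the log2 scale.

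Gene length moved with the experiment across the whole transcriptome. The median log2 fold change was -0.12 for genes of up to 300 bases and -0.20 for genes of 300 to 1000 bases, and it passed through -0.015 at 2000 to 4000 bases to 0.17 for genes over 8000 bases. This order held in each genotype from the second class upward, as the plot of medians by length shows. With the gene length trend removed, an alternative chosen after seeing the data, the median of ribosomal protein genes was -0.28, of histone genes -0.68, of hypoxia genes -0.82 and of glycolytic enzymes -0.69.

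**Figure D3:**
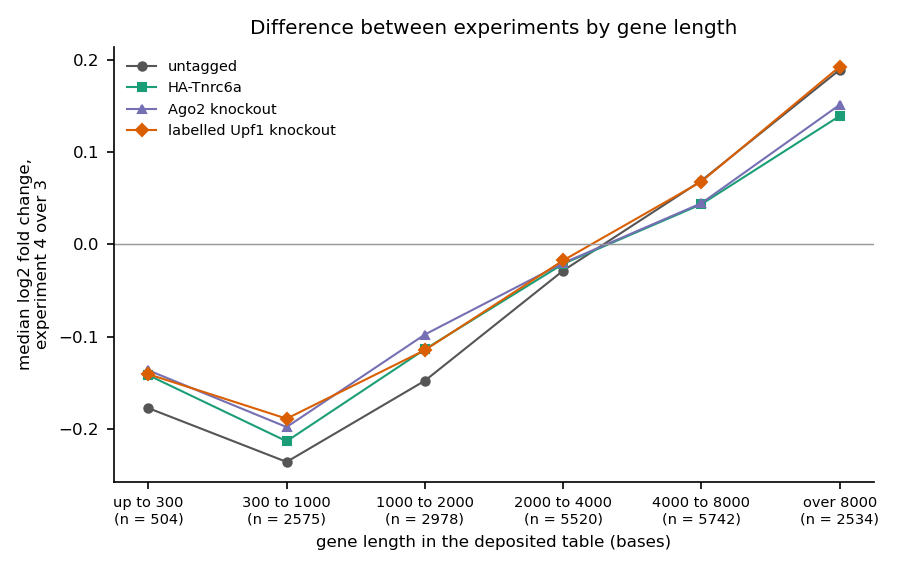
Median log2 fold change (experiment 4 over experiment 3) in each genotype, for genes grouped by the length in bases given in the deposited table, with the number of genes tested under each class. All 4 genotypes run from below 0 for genes of up to 2000 bases to above 0 for genes over 4000 bases.

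Most FGF-ERK feedback genes were higher in experiment 4. Of 14 tested, 10 were higher, 1 was lower and 3 did not pass (34.9% of all genes tested were higher and 35.4% lower), with a median log2 fold change of 0.63. In every genotype 9 were higher, beside 13.4% of all genes. Etv4, an Ets factor downstream of FGF receptors, stood at 77.3 to 139 CPM (median 106) in experiment 3 and 171 to 360.5 CPM (median 249.6) in experiment 4, a log2 fold change of 1.24 ± 0.022 (edgeR adjusted p = 1.09e-41). Dusp6, a phosphatase that switches ERK off, stood at 38.5 to 52.2 CPM (median 45.7) and 67.4 to 173 CPM (median 105), a log2 fold change of 1.24 ± 0.028 (edgeR adjusted p = 4.93e-37). Phlda1 rose by 1.62 ± 0.049. None of the 3 overlapped between the experiments. Ier3, an immediate early gene of the same list, went the other way, from 11.6 to 18.8 CPM (median 14.2) to 1.34 to 5.71 CPM (median 3.22), a log2 fold change of -2.23 ± 0.068 (edgeR adjusted p = 5.30e-32).

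YAP-TEAD targets were also mostly higher. Of 20 tested, 15 were higher, 3 lower and 2 did not pass, with a median log2 fold change of 0.76, and 10 were higher in every genotype. Among all genes tested, 34.9% were higher, 35.4% lower and 13.4% higher in every genotype. Amotl2, an angiomotin that binds and restrains YAP, stood at 15.7 to 37.5 CPM (median 23.4) in experiment 3 and 46.2 to 114 CPM (median 53.1) in experiment 4, without overlap, a log2 fold change of 1.43 ± 0.036 (edgeR adjusted p = 4.20e-35). The matricellular gene Ccn2 rose by 0.97 ± 0.087 and the phosphatase Ptpn14 by 0.86 ± 0.028. Gadd45b, a stress gene of the list, fell by 0.92 ± 0.054. The list median was lowest in HA-Tnrc6a cells (0.37) and 0.66 to 0.77 in the other genotypes.

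BMP and Id targets split. Of 11 tested, 6 were higher and 5 lower, beside 34.9% and 35.4% of all genes tested. Id1, an inhibitor of differentiation that BMP induces, stood at 10.1 to 35.0 CPM (median 22.3) in experiment 3 and 27.7 to 92.3 CPM (median 58.6) in experiment 4, a log2 fold change of 1.31 ± 0.039 (edgeR adjusted p = 1.02e-31). The libraries overlapped across genotypes, and within each genotype the 3 libraries of experiment 4 lay above the 3 of experiment 3. Id3 rose by 0.94 ± 0.039 and Smad7, an inhibitory Smad, by 1.13 ± 0.023. Id2 fell by 0.83 ± 0.079, from 2.85 to 10.3 CPM (median 8.38) to 1.17 to 6.81 CPM (median 5.61).

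Lef1, a DNA-binding partner of β-catenin, fell by more than any gene named here but Ndufa4l2 (ENSMUSG00000027985, chr3:131110297-131224357). It stood at 6.94 to 33.7 CPM (median 14.7) in experiment 3 and 0.0745 to 5.14 CPM (median 2.31) in experiment 4, without overlap, a log2 fold change of -3.28 ± 0.093 (edgeR adjusted p = 5.33e-31). The log2 fold change lay between -2.7 and -2.54 in 3 genotypes and was -5.29 in cells labelled Upf1 knockout, where the level in experiment 4 was 0.187 ± 0.109 CPM (SD, n = 3).

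Most pluripotency genes passed the test, as did 70.3% of all genes tested (34.9% higher and 35.4% lower). Their changes were mainly small. Pou5f1, the central factor of the state, did not pass (log2 fold change 0.03), and Nanog differed by 0.08. Among 18 naive factors, 11 were higher, 6 lower and 1 did not pass, with a median of 0.17, and for 7 the experiments did not overlap, beside 9.97% of all genes. At 2-fold or more, 1 was higher and 1 lower, beside 2.33% and 4.21% of all genes. Gbx2 stood at 34.1 to 48.8 CPM (median 38.9) in experiment 3 and 59.5 to 94.2 CPM (median 87.8) in experiment 4, without overlap, a log2 fold change of 1.06 ± 0.031 (edgeR adjusted p = 6.95e-33). Tbx3 rose by 0.67 ± 0.020 and the DNA demethylase Tet2 by 0.58 ± 0.023, while Tdgf1, a Nodal coreceptor, fell by 0.49 ± 0.020. Among 13 shared factors, 8 were higher, 4 lower and 1 did not pass, with a median of 0.25. For 6 of them the experiments did not overlap, beside the same 9.97%. None of the 13 reached 2-fold. Sall4 rose by 0.85 ± 0.020, Dppa2 by 0.75 ± 0.024 and Trim71, the protein whose sites the reporter carries, by 0.56 ± 0.022. Pou5f1 and Nanog were named after their values were seen. The summed level of the 8 stem cell markers was lower in experiment 4 without overlap in every genotype, from 7940 to 8840 CPM to 7000 to 7300 CPM in untagged cells, although 3 of the 8 were higher and 4 lower.

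**Figure D4:**
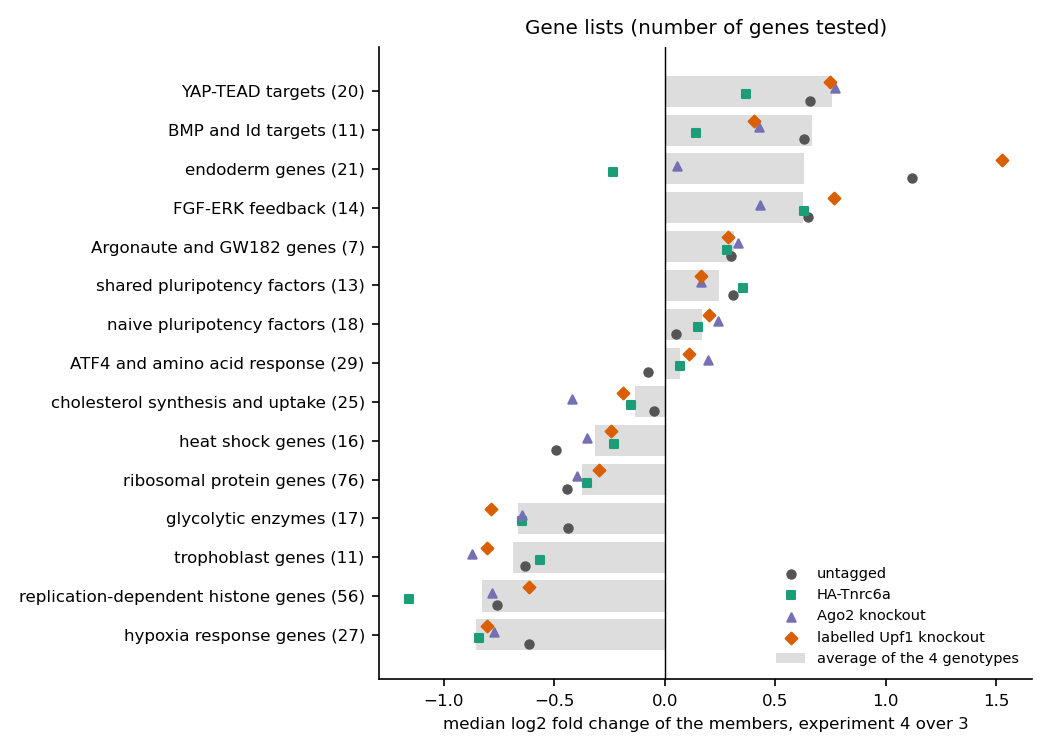
Median log2 fold change (experiment 4 over experiment 3) of 15 gene lists, with the number of genes tested; grey bars show the median of the members' average over 4 genotypes, and points the median within each genotype. A bar is not the mean of its points; endoderm genes are the list whose points lie farthest apart, from -0.23 to 1.53.

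Endoderm genes differed between the experiments in a way that depended on genotype. Of 21 tested, 15 were higher, 4 lower and 2 did not pass in the average, beside 34.9% of all genes higher and 35.4% lower. In every genotype, 0 were lower and 2 higher, beside 12% and 13.4% of all genes. In untagged cells 15 were higher and 0 lower (median 1.12), where 24.7% of all genes tested were higher and 24.2% lower. In cells labelled Upf1 knockout 16 were higher and 2 lower (median 1.53), beside 25.4% and 24% of all genes. In HA-Tnrc6a cells 4 were higher and 10 lower (median -0.23), beside 23.6% and 23.5%, and in Ago2 knockout cells 8 were higher and 3 lower (median 0.055), beside 24.4% and 24.3%. The interaction of experiment and genotype, the test of that difference, was called for 19 of the 21, beside 3902 of all genes tested (19.7%).

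The collagen IV genes of the basement membrane had the smallest interaction p-values of all genes, with the laminin gene Lama1. Col4a1 (chr8:11198423-11312889) rose from 33.2 ± 0.593 to 118 ± 4.19 CPM (SD, n = 3) in untagged cells, from 17.5 ± 0.665 to 40.3 ± 1.71 with Ago2 knocked out and from 33.3 ± 1.32 to 149 ± 8.09 with the Upf1 knockout label. In HA-Tnrc6a cells it went from 112 ± 1.56 to 94.5 ± 6.55 CPM. The interaction had an edgeR adjusted p of 9.87e-30, and of 9.65e-25 for Col4a2 and 8.11e-20 for Lama1. Lama1 rose by 0.79, 0.19 and 1.53 on the log2 scale in untagged, Ago2 knockout and labelled Upf1 knockout cells and was lower by 0.37 in HA-Tnrc6a cells (log2 fold change -0.37).

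The 6 endoderm markers Gata4, Gata6, Sox17, Sox7, Foxa2 and Dab2 were all higher in the average, with Foxa2 at 0 to 1.06 CPM. Their summed level went from 13 to 17.2 CPM in experiment 3 to 41.7 to 42.9 in experiment 4 in untagged cells, from 14.4 to 17.1 to 57.7 to 61.6 in cells labelled Upf1 knockout, from 7.60 to 8.40 to 9 to 10.4 in Ago2 knockout cells and from 37.9 to 40.8 to 35.4 to 39.6 in HA-Tnrc6a cells. Gata6, an early endoderm factor, stood at 0.313 to 5.00 CPM (median 3.30) in experiment 3 and 0.718 to 20.8 CPM (median 8.08) in experiment 4, a log2 fold change of 1.56 ± 0.105 (edgeR adjusted p = 2.27e-18). Sox7, its partner in extraembryonic endoderm, rose by 1.31 ± 0.101. The libraries of the experiments overlapped for both genes. The part of these markers' cells in the values of the other genes was not tested.

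**Figure D5:**
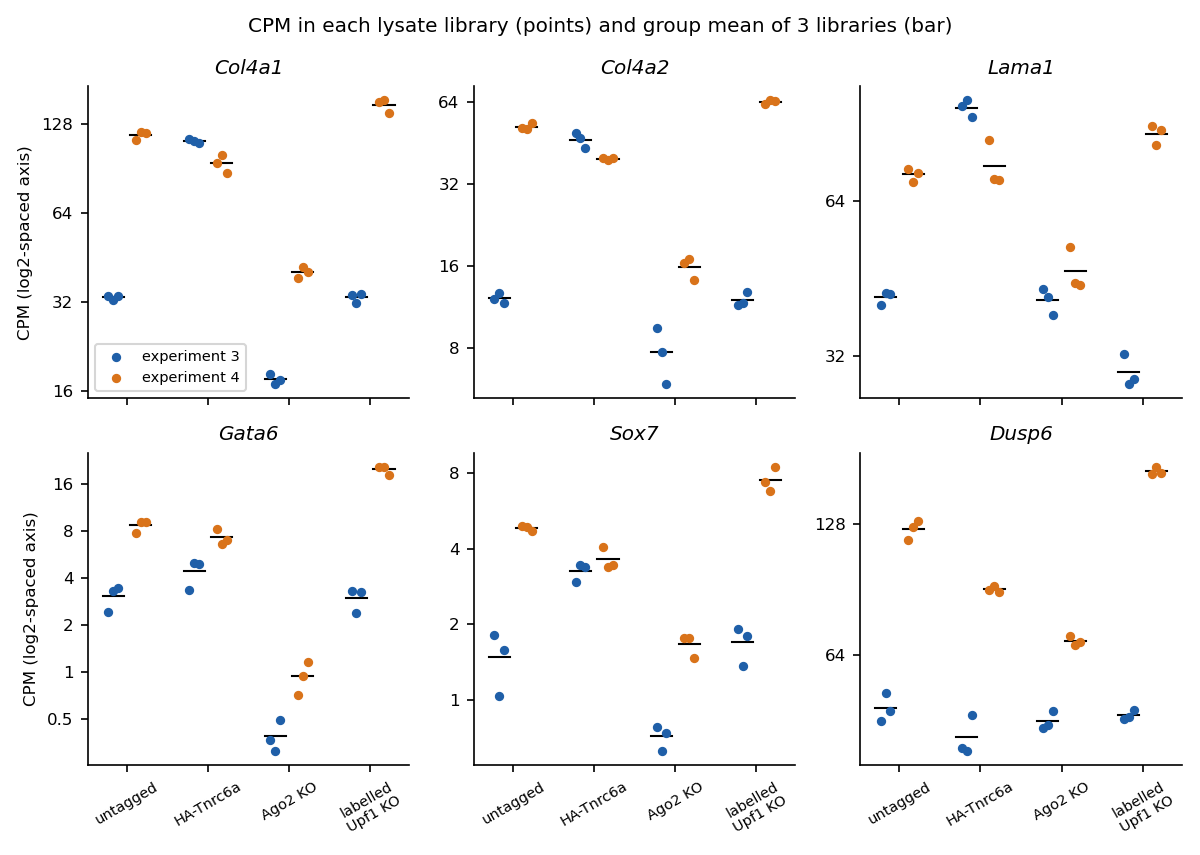
CPM on a log2-spaced axis in each of the 24 lysate libraries (points) for 5 endoderm or basement membrane genes and Dusp6, by genotype, with bars at the mean of 3 libraries. Col4a1, Col4a2 and Lama1 are higher in experiment 4 in 3 genotypes and lower in HA-Tnrc6a cells, whereas Dusp6 is higher in experiment 4 in all 4.

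Genes listed as trophoblast markers moved both ways, and several markers that define the lineage were near 0 or not analysed here. Of 11 tested, 7 were lower, all 7 in every genotype, and 4 were higher, with a median of -0.69, beside 35.4% of all genes lower and 34.9% higher. The share of all genes lower in every genotype was 12%. Cdx2 and Elf5 were not analysed here, and Gata3 stood at 0 to 0.508 CPM. The members that fell were keratins of simple epithelia, an imprinted noncoding RNA and transcription factors. Krt19 stood at 5.78 to 12.1 CPM (median 8.59) in experiment 3 and 0.632 to 4.05 CPM (median 1.24) in experiment 4, without overlap, a log2 fold change of -2.53 ± 0.0904 (edgeR adjusted p = 4.54e-29). Krt18 fell by 1.12 ± 0.057, H19 by 1.59 ± 0.081 and Ascl2 by 1.64 ± 0.091. The 4 that rose, named after their values were seen, were the transcription factors Tead4 (log2 fold change 0.79), Eomes (0.48) and Hand1 (1.00, at a mean of 0.576 CPM in experiment 3 and 1.11 CPM in experiment 4) and the keratin Krt8 (0.42), which pairs with Krt18 in simple epithelia. Esrp1, a splicing factor of epithelial cells chosen by size, fell by 2.59 ± 0.074.

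Metabolic lists other than glycolysis moved less. Of 25 cholesterol genes, 15 were lower, 5 higher and 5 did not pass, beside 35.4% of all genes lower and 34.9% higher. The median of the list was -0.13. Insig1, which retains the SREBP complex in the endoplasmic reticulum, fell by 1.04 ± 0.026 and the reductase Dhcr7 by 0.80 ± 0.028, both without overlap of the experiments. Of 29 genes of the ATF4 and amino acid response, 14 were higher, 12 lower and 3 did not pass, with a median of 0.069, beside 34.9% of all genes higher and 35.4% lower. Chac1, which degrades glutathione, rose by 1.06 ± 0.042 and the arginine transporter Slc7a1 by 0.92 ± 0.029.

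The silencing genes at the centre of the series differed by less than 2-fold between the experiments. Of 7 Argonaute and GW182 genes, 5 were higher, 0 lower and 2 did not pass, with a median of 0.32, and 4 were higher in every genotype. The share that passed was near the 70.3% of all genes tested. Among all genes, 34.9% were higher, 35.4% lower and 13.4% higher in every genotype. Ago2 stood at 103 to 316 CPM (median 229) in experiment 3 and 137 to 526 CPM (median 364) in experiment 4, a log2 fold change of 0.64 ± 0.045 (edgeR adjusted p = 3.45e-10). Tnrc6a, the tagged gene, rose by 0.32 ± 0.026 and Tnrc6c by 0.54 ± 0.025. These are long transcripts. With the gene length trend removed, the median of the list was 0.11, and 4 were higher and 1 lower.

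Among genes chosen by size under the limits given above, the largest rise was at Zfhx2 (ENSMUSG00000040721, chr14:55060268-55092381), which encodes a zinc finger homeobox protein. It stood at 29.8 to 53.4 CPM (median 37.9) in experiment 3 and 212 to 249 CPM (median 236) in experiment 4, a log2 fold change of 2.61 ± 0.034 (edgeR adjusted p = 8.72e-37). Its antisense neighbour Zfhx2os rose by 2.55 ± 0.054. No source used here gives the strand setting of the counting, and the reads of this pair cannot be told apart. Within each experiment, Zfhx2 varied little between genotypes, with group means of 33.6 to 47.5 CPM and 220.0 to 246 CPM.

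The other rises of that choice were smaller and at lower levels. Rapgef3, an exchange factor that senses cyclic AMP, rose by 2.01 ± 0.044, the guidance receptor gene Robo4 by 1.82 ± 0.077, the deaminase-family gene Apobec2 by 1.65 ± 0.067 and Igdcc3 by 1.62 ± 0.058. Cntfr, a receptor subunit of the LIF cytokine family, stood at 5.78 to 22 CPM (median 8.56) in experiment 3 and 22.6 to 47.7 CPM (median 26.1) in experiment 4, without overlap, a log2 fold change of 1.58 ± 0.044 (edgeR adjusted p = 1.95e-33). Zbtb7c rose by 1.75 ± 0.074 and Insyn1 by 1.57 ± 0.077. Of the falls of that choice not yet named, A2m, a protease inhibitor of plasma, fell by 1.93 ± 0.063 and H2-Q7, an MHC class I gene with near-identical relatives, by 2.06 ± 0.063.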

How the data were processed

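RNA from lysates was isolated with a single-cell RNA kit and DNase, and libraries were made with a stranded total RNA kit, per the labels. The authors deposited 1 table of raw counts per gene and library, with no normalization, for 20171 genes. The submitters' processing notes name bcl2fastq 2.20, STAR 2.7.3a and the mouse build GRCm38 (mm10); the counting program, its strand setting and the annotation are not given in the sources used here. The 48 further columns of per-sample values were not used. The table lists no gene below 11 counts in its highest library. Totals set the counting error only, since no molecular identifiers mark duplicate reads. Replicates were separate dishes, per the labels.

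Counts of the 24 inputs were fitted in 1 model with 8 group coefficients (edgeR 4.0.16, limma 3.58.1, R 4.3.3; TMM, filterByExpr with a minimum count of 10, robust quasi-likelihood fit), which kept 19853 genes. Contrasts of experiment 4 minus 3 were taken per genotype and averaged over the 4, with two-sided tests, Benjamini-Hochberg adjustment over all genes tested and a threshold of 0.05. The interaction was tested with 3 contrasts. The standard error is the log2 fold change over the square root of F. Shares of 4 gene classes were tested by exact permutation of experiments within genotypes, and the fit was tested on simulated data. Replicate numbers do not pair the libraries: same-numbered libraries of different genotypes correlated by 0.00597 in experiment 3 and 0.01 in experiment 4 on average.

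The deposited table itself names 16427 genes, and reference tables named 3725 more. Coordinates are those of RefSeq's GRCm38.p6. Named are 10 genes per direction with the largest average change (adjusted p under 0.05, the same sign in 4 genotypes, average log2 CPM of at least 3, no Gm or Rik name), the targeted genes, 3 genes by interaction p and up to 4 members per described list (adjusted p under 0.05, average log2 CPM of at least 1). The libraries and lists were chosen with earlier results of these data known. Alternatives were another scaling, no filter, DESeq2 1.42.0, thinning, a 2-fold minimum, the replicate block, all 48 libraries in 1 fit, and leaving out a library or genotype. Removing the length trend and leaving out both libraries that stood apart were chosen after seeing the data.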

Additional observations from a re-analysis of the deposited data

Results flagged for a closer look

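The difference between the experiments itself differed between genotypes for 3902 of the 19853 genes tested (edgeR's quasi-likelihood test of the interaction, Benjamini-Hochberg adjusted). Among the 77 genes named by the rule, 50 were in this set, beside 19.7% of all genes tested. Of these 50, 4 had opposite signs in different genotypes. Both counts are partly set by the rule and are a description. Col4a1, Col4a2 and Lama1 were named for their small interaction p. Genes chosen by size had to have the same sign in 4 genotypes, so they could not have opposite signs. For Col4a1 the log2 fold change was 1.83 in untagged cells, -0.25 in HA-Tnrc6a cells, 1.20 with Ago2 knocked out and 2.16 in cells labelled Upf1 knockout (edgeR adjusted p of the interaction 9.87e-30). For Col4a2 the log2 fold change was 2.09 in untagged cells, -0.23 in HA-Tnrc6a cells, 1.02 with Ago2 knocked out and 2.42 in cells labelled Upf1 knockout (edgeR adjusted p of the interaction 9.65e-25). For Lama1 the log2 fold change was 0.79 in untagged cells, -0.37 in HA-Tnrc6a cells, 0.19 with Ago2 knocked out and 1.53 in cells labelled Upf1 knockout (edgeR adjusted p of the interaction 8.11e-20). For H2bc24 the log2 fold change was -0.45 in untagged cells, -0.95 in HA-Tnrc6a cells, -0.25 with Ago2 knocked out and 0.06 in cells labelled Upf1 knockout (edgeR adjusted p of the interaction 0.0371).

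Of the hypoxia and glycolysis genes, the edgeR adjusted p of the interaction was 6.92e-10 for Bnip3, 6.1e-09 for Ndrg1, 1.41e-12 for Egln3, 3.55e-07 for Aldoc, 0.00894 for Tpi1 and 5.77e-05 for Pgk1. Of the heat shock genes, the edgeR adjusted p of the interaction was 2.28e-08 for Hspa1a, 0.000101 for Hspa1b and 0.0265 for Dnajb1. Of the FGF-ERK genes, the edgeR adjusted p of the interaction was 8.54e-16 for Dusp6, 0.00822 for Etv4, 7.27e-07 for Phlda1 and 6.45e-06 for Ier3. Of the YAP-TEAD targets, the edgeR adjusted p of the interaction was 4.19e-07 for Amotl2, 0.0035 for Ccn2 and 4.53e-07 for Ptpn14. Of the BMP and Id targets, the edgeR adjusted p of the interaction was 0.00169 for Id1, 0.00661 for Id2, 2.6e-07 for Id3 and 2.25e-09 for Smad7. Of the pluripotency factors, the edgeR adjusted p of the interaction was 3.06e-06 for Gbx2, 4.69e-06 for Tbx3, 0.0313 for Tet2, 0.0157 for Dppa2 and 0.000284 for Trim71. Of the endoderm and trophoblast genes, the edgeR adjusted p of the interaction was 1.45e-08 for Gata6, 2.5e-07 for Sox7, 7.21e-08 for Krt19 and 0.00107 for H19. Of the cholesterol and amino acid genes, the edgeR adjusted p of the interaction was 1.05e-07 for Insig1, 0.0143 for Dhcr7, 0.000239 for Msmo1, 0.000104 for Ddit4, 1.15e-07 for Chac1, 0.00304 for Pck2 and 0.0231 for Slc7a1. Of the genes chosen by the size of their rise, the edgeR adjusted p of the interaction was 0.000267 for Zfhx2, 0.0202 for Apobec2 and 4.04e-07 for Cntfr. Of the genes chosen by the size of their fall, the edgeR adjusted p of the interaction was 2.95e-05 for Ndufa4l2, 1.12e-06 for Lef1, 5.68e-05 for Esrp1, 0.028 for A2m, 2.82e-06 for Ccng2 and 0.0346 for H2-Q7. For the targeted gene Upf1 it was 0.0146.

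Among these genes, the extremes by genotype were as follows. The fall of Bnip3 was 2.28 on the log2 scale in untagged cells and 4.25 in cells labelled Upf1 knockout, and that of Lef1 was 2.54 in HA-Tnrc6a cells and 5.29 with the Upf1 knockout label. The fall of Krt19 was 1.25 in untagged cells and 2.93 to 2.99 in the other genotypes. Dusp6 rose by 0.61 with Ago2 knocked out and by 1.86 with the Upf1 knockout label. Sox7 rose by 2.16 with that label, and its log2 fold change in HA-Tnrc6a cells was 0.16.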

How the results depend on the processing

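Counts of called genes stayed within 1.5 times of the values given under the scalings, filters and tools tried, and a fold minimum changed them most. With at least 2-fold, 1297 genes were called in the average, 1393 in untagged cells, 1424 in HA-Tnrc6a cells, 1547 in Ago2 knockout cells, 1643 in cells labelled Upf1 knockout and 354 in all 4 with the same sign. The interaction was called for 1671 genes with all 48 libraries in 1 fit; the cause was not tested. The average gave 13926 genes with DESeq2, 13158 with thinned counts and 14015 with the replicate block, which changed no call of a named gene. With the HA-Tnrc6a genotype left out, H2bc24 had a log2 fold change of -0.21 (edgeR adjusted p = 0.13). Leaving out 1 library gave 13667 to 13917 genes in the average, 8803 to 9810 in untagged cells, 8279 to 9822 in HA-Tnrc6a cells, 8622 to 10127 in Ago2 knockout cells, 8679 to 10249 in cells labelled Upf1 knockout, 4763 to 5135 in all 4 and 3321 to 4514 for the interaction. A fit with the authors' own scaling factors was not run. The mitochondrially encoded share was 0.0299% and 0.0452% of counts in experiments 3 and 4. That class held 13 genes, and mitochondrial mRNAs such as mt-Nd1 and mt-Cytb were not analysed here. In HA-Tnrc6a cells its means were 0.03935% and 0.04151%, with library 3 of experiment 3 at 0.0805% and libraries 1 and 2 at 0.0171% and 0.0205%. With 1 library left out, the mitochondrially encoded share differed by 0.0125 to 0.0205 percentage points and that of ribosomal protein genes by -1.75 to -1.59. Shares of genes of up to 300 bases then differed by -0.0409 to -0.0315 and of histone genes by -0.00373 to -0.00349. List medians were compared with the SD of the medians of the 4 genotypes, which is not a spread between replicates. By that measure, 219 of 224 values from alternatives other than leaving out 1 library stayed within 1 SD. The measure is wide where genotypes differ, as for endoderm genes. The median of Argonaute and GW182 genes was 0.29 without library 1 of untagged cells in experiment 3.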

Other observations

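Further lists of known programs were counted in the same fit, in which 34.9% of all genes tested were higher and 35.4% lower. Of 26 p53 targets, 18 were higher in experiment 4, 5 lower and 3 did not pass, with a median log2 fold change of 0.18. That rise depended on genotype. The median was 0.22 in untagged, -0.0093 in HA-Tnrc6a, 0.11 in Ago2 knockout and 0.38 in labelled Upf1 knockout cells. In HA-Tnrc6a cells 10 were higher and 7 lower, beside 23.6% and 23.5% of all genes. The interaction was called for 19 of the 26, beside 19.7% of all genes. Of 15 DNA methylation genes, 10 were higher and 4 lower; Tet1, which oxidises methylcytosine, rose by 1.11 ± 0.050 (SE), from 65.2 to 97.9 CPM (median 83.2) to 151 to 210 CPM (median 180.4), and Dnmt3l, a cofactor of the methyltransferases, fell by 0.46 ± 0.020. Of 26 genes of G2 and M phase, 14 were lower and 6 higher, and of 24 S phase genes, 13 were higher and 6 lower, with medians of -0.060 and 0.10. In cells labelled Upf1 knockout, 6 S phase genes were higher and 8 lower (median -0.051), beside 25.4% and 24% of all genes. The S phase median was 0.041 to 0.16 in the other genotypes. Of 15 nuclear long noncoding RNAs, 10 were lower and 3 higher; Neat1, the scaffold of paraspeckles, fell by 1.07 ± 0.027 and Malat1 by 0.46 ± 0.030. Of 34 imprinted genes, 12 were higher and 14 lower, shares near those of all genes, with Peg10, a gene derived from a retroelement, up by 1.43 ± 0.026.

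A list of MHC class I presentation genes was assembled after H2-Q7 had been seen among the largest falls, so its counts are a description. Of 19 tested, 16 were lower, 1 was higher and 2 did not pass, with a median of -0.86, and 9 were lower in every genotype. Over all genes tested, 35.4% were lower, 34.9% higher and 12% lower in every genotype. H2-K1 fell by 1.43 ± 0.040, from a mean of 37.0 to 13.9 CPM, while B2m, the shared light chain, fell by 0.50 ± 0.064 and Tapbp rose by 0.24 ± 0.045. The class I heavy chain genes are close relatives, and the division of reads among them is uncertain.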
